A study of Mus musculus with 6 samples.

Results

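Deep introns, the parts of a transcribed gene that lie far from where transcription starts, held 12937 of the 202553 H3K9me3 regions of quadriceps femoris (6.39%). Members were the autosomal regions that the authors' table places in an intron and more than 100 kb from the transcript start it assigns. Genes whose symbols begin with Zfp, Olfr, Vmn, Cdh, Pcdh, Cntn or Csmd were left out. No count entered that rule, though it was chosen with earlier results of these data known. The genotypes were compared over the members. CUT&Tag holds a transposase at the antibody-bound mark, where it inserts sequencing adapters into nearby DNA. The groups were Prr14-KO mice (replicates 4, 5 and 7) and Prr14-WT mice (replicates 3, 4 and 8), with 3 libraries each from frozen quadriceps femoris. The labels give no age, sex, strain, batch or kind of knockout, and do not state that each library came from a different mouse, so p-values measure only the spread between these libraries. Frozen whole muscle holds nuclei of several cell types, and H3K9me3 does not read their marker genes, so the cell make-up was not checked.

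H3K9me3 marks compact, constitutive heterochromatin and is bound by the HP1 proteins. PRR14 is known to bind HP1 at the nuclear lamina, the protein layer under the nuclear envelope, and so to hold marked chromatin at the nuclear edge. Very long mammalian genes are mostly introns, many serve neurons and synapses, and much of their intron sequence derives from transposable elements, a usual substrate of this mark. Many of them are not transcribed in muscle, while others, such as dystrophin, serve the muscle fibre. The deposited table has no repeat annotation and no expression values, so neither was related to the members.

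Few members overlapped an annotated start. Of 32851 RefSeq promoter windows of GRCm38.p6, each running from 250 bases before to 50 bases after a start, 25 overlapped a member and 8 lay wholly inside one. Of these 8, 3 are printed because each is an annotated start inside a long gene's intron and within an H3K9me3 region. They were chosen after their values were seen. Without expression values, transcription from these starts in muscle was not tested. The sequences are those of RefSeq on the strand of the transcript, 5′ to 3′, and capitals mark the dinucleotide CG, the site of DNA methylation.
Kcnq1ot1 (chr7:143296498-143296797, minus strand): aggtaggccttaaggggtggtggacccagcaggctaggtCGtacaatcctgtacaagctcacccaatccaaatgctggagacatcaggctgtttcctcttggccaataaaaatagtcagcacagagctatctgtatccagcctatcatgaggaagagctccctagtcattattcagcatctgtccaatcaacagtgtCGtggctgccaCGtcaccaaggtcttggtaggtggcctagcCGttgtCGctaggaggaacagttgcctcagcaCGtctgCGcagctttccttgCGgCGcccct
Fhitos (chr14:10738303-10738602, plus strand): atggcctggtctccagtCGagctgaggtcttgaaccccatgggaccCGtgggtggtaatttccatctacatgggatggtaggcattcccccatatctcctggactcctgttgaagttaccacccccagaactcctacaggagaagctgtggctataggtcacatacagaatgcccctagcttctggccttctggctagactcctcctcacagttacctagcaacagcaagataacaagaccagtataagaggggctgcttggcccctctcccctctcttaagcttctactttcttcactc
Gm46928 (chr5:148149762-148150061, plus strand): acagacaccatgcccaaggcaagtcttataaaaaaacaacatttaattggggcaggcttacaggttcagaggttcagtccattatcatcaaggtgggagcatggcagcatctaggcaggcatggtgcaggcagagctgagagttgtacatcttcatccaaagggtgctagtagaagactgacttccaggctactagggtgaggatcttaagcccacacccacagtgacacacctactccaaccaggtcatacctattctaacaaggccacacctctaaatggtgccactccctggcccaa
The motif searched was CG, which reads the same on both strands. The Kcnq1ot1 window held 9 CG, the Fhitos window 2 and the Gm46928 window 0. At least 9 CG occur in 45.8% of all RefSeq windows, and at least 2 in 85.9%. The median was 4 CG in the 25 windows that overlap members and 7 in all windows.

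Kcnq1ot1 is the long noncoding RNA transcribed within Kcnq1, a potassium channel gene, and is known for imprinted silencing of its neighbours. Its promoter lay inside a member of 1880 bp at chr7:143295076-143296955, in an intron of Kcnq1, which the authors' table assigned to Cdkn1c at a distance of 164146 bp. That region held 89, 68 and 76 counts in Prr14-KO and 89, 66 and 99 in Prr14-WT. The groups overlapped, with a log2 fold change (Prr14-KO over Prr14-WT) of -0.05 (SE 0.22, edgeR adjusted p = 0.998). Fhitos is an RNA annotated inside Fhit, and its region at chr14:10738257-10739098 held 30, 26 and 41 counts in Prr14-KO against 18, 13 and 52 in Prr14-WT. Prr14-WT replicate 8 held the highest of these counts and Prr14-WT replicate 4 the lowest. Gm46928 is a gene model inside Mtus2, the gene of a microtubule-associated protein, and its region at chr5:148149225-148150155 held 100, 74 and 78 counts in Prr14-KO against 56, 63 and 69 in Prr14-WT. Each Prr14-KO count was above each Prr14-WT count there, with a log2 fold change of 0.50 (SE 0.23). The Gm46928 region did not pass, with an edgeR adjusted p of 0.998. Of the other regions that hold a whole window, that of Gm37416 had higher counts in Prr14-KO, at 23, 20 and 23 against 16, 19 and 12. That of Gm31304 had lower counts in Prr14-KO, at 21, 19 and 19 against 33, 33 and 23. So did that of Gm51928, at 30, 28 and 28 against 31, 55 and 43. Counts overlapped in the regions of Gm51889, at 43, 44 and 56 against 55, 24 and 47, and Gm3474, at 38, 40 and 50 against 69, 30 and 54. None of these passed. By CPM, the groups did not overlap in 9.6% of all regions tested.

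The members were short, weak and spread widely. Their median width was 306 bp, with quartiles of 197 and 512 bp, and 4.26% were 1 kb or wider. These traits were not particular to members. The median width was 318 bp over all regions and 280 bp in shallow introns, those within 100 kb of a start. The median count a library was 14.5 in members, 15 over all regions and 13.5 in shallow introns. The summed width of the members was 5.16 Mb. The median member lay 189 kb from its assigned start, and 949 lay beyond 500 kb. Scaled by TMM, a correction for library composition, to CPM (counts relative to library size), the median member had a mean of 3.18 CPM over the 6 libraries, with quartiles of 2.204 and 4.93 CPM. Just inside the distance limit, a region of Nav2 at 100002 bp held 0, 17 and 11 counts in Prr14-KO and 7, 15 and 4 in Prr14-WT. Just outside it, a region of Cadps2 at 100000 bp held 9, 4 and 7 counts in Prr14-KO and 15, 10 and 19 in Prr14-WT.

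Members were spread unevenly over the autosomes. Chromosome 14, which carries Gpc5, Gpc6, Fhit and Nrg3, held 8.31% of members and 5.10% of all autosomal regions. Chromosome 8, which carries Sgcz, Nrg1, Wwox and Unc5d, held 7.58% of members and 5.59% of all autosomal regions. Chromosome 7 held 4.61% of members and 6.04% of all autosomal regions. These shares are descriptions, since regions of the same gene are not independent of each other.

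The assigned gene was not always the long gene that holds the region. The authors' table assigned members to 1146 genes, yet 9665 members (74.7%) lay within the span of the gene named. Another 3209 lay upstream of its start. In RefSeq, the longest gene over a member's midpoint carried the same symbol for 9520 members and another symbol for 3225, and 192 members had no RefSeq gene there. The 831 RefSeq hosts were mostly protein coding, covering 12648 members, and 89 members lay in long noncoding RNA genes.

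Such mismatches were many where a short gene neighbours or nests in a long one. All 85 regions assigned to Lrrtm3, a synaptic adhesion gene, lay in Ctnna3, which encodes alpha-T-catenin of the heart's cell junctions and whose span encloses Lrrtm3. Gpc6 was named for 58 regions that lie in Gpc5, and Dct, a pigment enzyme gene, for 57 that lie in Gpc6. Lrrn3, nested in the mitochondrial peptidase gene Immp2l, was named for 52 that lie in Immp2l. Myom2, the gene of an M-band protein of the sarcomere, was named for 41 regions that lie in Csmd1, among them the most distant member at 1236522 bp. By host, 200 members lay in RefSeq genes of the families left out by symbol.

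Counted by RefSeq host, Gpc5 came first with 151 regions. Gpc5 encodes a glypican, a heparan sulphate proteoglycan of the cell surface. Lrp1b followed with 148, then Fhit and Ptprt with 116 each, Macrod2 with 114, Ctnna3 with 110, and Sgcz and Lsamp with 108 each. Set against gene length among the 25 hosts with most regions, the order differed. Regions within 100 kb of an assigned start were not counted, while the whole RefSeq span was the divisor. These densities therefore depend in part on how much of each gene the rule admits. Gabrg3, a GABA-A receptor subunit gene, had 134 regions per Mb of its RefSeq span. Tmem132d had 119 and Negr1, an adhesion gene of the IgLON family, 109, against 49.1 in Lsamp and 40.5 in Dlg2. Members covered 5.50% of the Gabrg3 span, 1.64% of the Dlg2 span and 1.597% of the Lsamp span. Neighbouring members of the same host were a median of 7289 bp apart.

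Summed counts over all regions were alike, at 4324444 to 4756133 per library, with 237920 to 266496 of them in members. Members took 5.37%, 5.48% and 5.60% of the counts in Prr14-KO and 5.60%, 5.39% and 5.49% in Prr14-WT. The mean was 5.48% ± 0.115 in Prr14-KO and 5.49% ± 0.109 in Prr14-WT (SD, n = 3 each), and the groups overlapped. The difference of -0.0112 percentage points had p = 0.70 in a two-sided exact permutation test, whose smallest possible p with 3 libraries against 3 is 0.10. The ratio of deep intron counts to those of shallow introns, within 100 kb of a start, needs no scaling between libraries. Its log2 was -1.20 ± 0.0387 in Prr14-KO and -1.19 ± 0.0339 in Prr14-WT (SD, n = 3 each, exact permutation p = 0.80). The labels name no spike-in, and a change of equal size over the whole genome would not show in any of these values.

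The genotypes overlapped in all 5 classes of distance. Between 100 and 150 kb, 4432 members held 1.85% ± 0.0494 of counts in Prr14-KO and 1.85% ± 0.0360 in Prr14-WT. Beyond 500 kb, 949 members held 0.376% ± 0.0135 in Prr14-KO and 0.379% ± 0.0109 in Prr14-WT (SD, n = 3 each). Over the 5 distance classes, exact permutation p ran from 0.60 to 1.0, and every adjusted p was 1.0. The largest difference among the 5 was -0.00918 percentage points, between 300 and 500 kb.

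**Figure D1:**
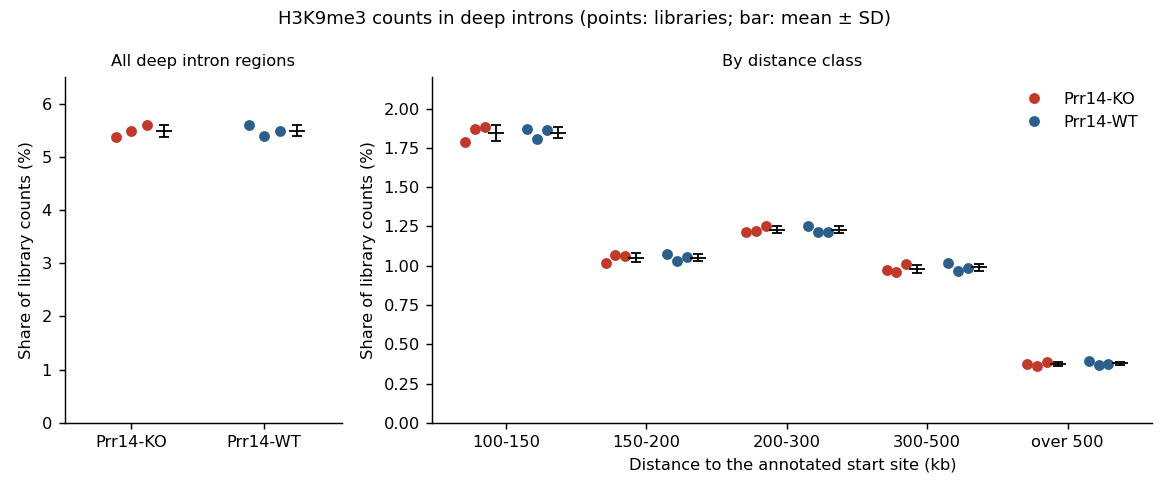
Share of each library's H3K9me3 counts (percent, vertical axes from 0) in all deep intron regions (left) and in 5 classes of distance to the assigned start in kb (right), with Prr14-KO left of Prr14-WT in each pair. Points are libraries and bars show mean ± SD of 3. The genotypes overlap in every class, at 5.48% and 5.49% over all members.

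The classes of regions were compared in CPM by library totals, without TMM. Per kb of region, members carried 10.6 ± 0.222 CPM in Prr14-KO and 10.6 ± 0.211 CPM in Prr14-WT (SD, n = 3 each). Shallow introns carried 11.2 ± 0.430 CPM per kb in Prr14-KO and 11.1 ± 0.207 in Prr14-WT. Intergenic regions beyond 100 kb carried 11.3 ± 0.164 CPM per kb in Prr14-KO and 11.3 ± 0.147 in Prr14-WT. Members were below both other classes in 6 of 6 libraries, by a log2 ratio of -0.07 (SD 0.033) to shallow introns and -0.09 (SD 0.031) to intergenic regions. An exact sign-flip permutation test over the 6 libraries gave p = 0.031 for each, also adjusted over both, the smallest that 64 arrangements can give. Of the 500 regions of the table with most counts, 16 are members, 68 shallow intron regions and 110 intergenic regions beyond 100 kb. Without those 500, which were chosen by the counts compared, the log2 ratios were 0.0057 (p = 0.6875) and 0.0031 (p = 0.8125, same exact test). Without regions under 300 bp the log2 ratios were -0.0938 and -0.130 (p = 0.031 each, same exact test).

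**Figure D2:**
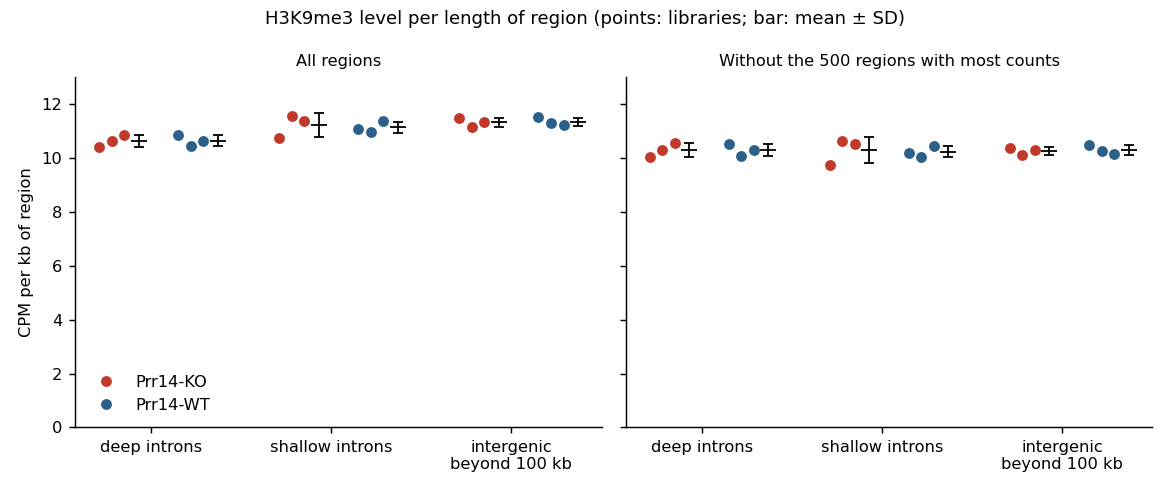
H3K9me3 level (CPM by library totals per kb of region, axis from 0) in deep introns, shallow introns and intergenic regions beyond 100 kb. The left panel is over all regions and the right without the 500 regions with most counts, with Prr14-KO left of Prr14-WT. Points are libraries and bars show mean ± SD of 3. Deep introns lie lowest on the left, near 10.6, and level with the other classes on the right, near 10.3.

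A pair of members stood far above the rest in every library. The first, at chr19:58113267-58113630, is assigned to Gfra1, a GDNF family receptor gene, and lies in Atrnl1 by RefSeq. It held 4240, 3502 and 3353 counts in Prr14-KO and 4004, 4312 and 4150 in Prr14-WT, which was 1.39% to 1.72% of all deep intron counts. The second, at chr12:67059165-67059897 in Mdga2, an immunoglobulin family gene that regulates synapse formation, held 2517, 1920 and 1708 counts in Prr14-KO and 2180, 2520 and 2093 in Prr14-WT. Their mean CPM was 269 and 148 times that of the median member, while the third, in Rp1, reached 21.7 times. The genotypes overlapped at both, with log2 fold changes of -0.09 (SE 0.11) for Gfra1 and -0.07 (SE 0.12) for Mdga2.

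The Rp1 region at chr1:4255789-4259549, in a gene of photoreceptor cilia, was also the widest member at 3761 bp. It held 380, 276 and 276 counts in Prr14-KO and 324, 317 and 324 in Prr14-WT (log2 fold change 0.02, SE 0.15). Others with high counts lay in Dlgap2, Rora, Cdh13 (assigned to Hsbp1) and Ryr2. Ryr2 encodes the cardiac calcium release channel, and its region at chr13:11959512-11960233 held 205, 195 and 169 counts in Prr14-KO and 179, 206 and 199 in Prr14-WT. The next widest members, of 2265 to 2990 bp, lay in Wwox, Fgf12 and Zfhx3 or were assigned to Fam172a and Urb2. The Urb2 region had no RefSeq gene over its midpoint. Among these next widest members, the Fgf12 region held 75, 54 and 53 counts in Prr14-KO against 82, 90 and 77 in Prr14-WT. The Fgf12 groups did not overlap, and the log2 fold change was -0.38 (SE 0.23, edgeR adjusted p = 0.998).

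Single members were tested in a fit over the whole table. Of the 12937, 9719 (75.1%) had enough counts to be tested, and 0 passed an adjusted p of 0.05 in edgeR's quasi-likelihood test, where all regions tested had 20 of 153789 (0.013%). DESeq2 and limma-voom also called 0 members, where all regions had 0.00975% and 0.00845%. DESeq2 gave no adjusted p to 2775 of the 9719 members and 41743 of the 153789 regions. Those could not be called, though they count in its share. The smallest adjusted p among members in edgeR was 0.998. An unadjusted edgeR p under 0.05 was reached by 373 members (3.84%), 209 higher and 164 lower in Prr14-KO, where all tested regions had 3.86% (2.07% higher and 1.78% lower). The counterpart was 357 members in DESeq2, where all tested regions had 3.64%, and 254 in limma-voom, where they had 2.77%. Prr14-KO and Prr14-WT values did not overlap in 925 members, 449 higher and 476 lower (9.52%), where all regions had 9.6% (4.7% higher and 4.91% lower). Both shares were near those of the table. The median log2 fold change of the members was 0.01, with quartiles of -0.29 and 0.31, and the median standard error was 0.47, so single regions gave imprecise values. By the authors' deposited table, of 10377 members with an adjusted p, 0 were below 0.05 (all regions with one 0.00796%). Of all 12937 members, 517 had an unadjusted p under 0.05 in that table (3.996%, all regions 3.91%).

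**Figure D3:**
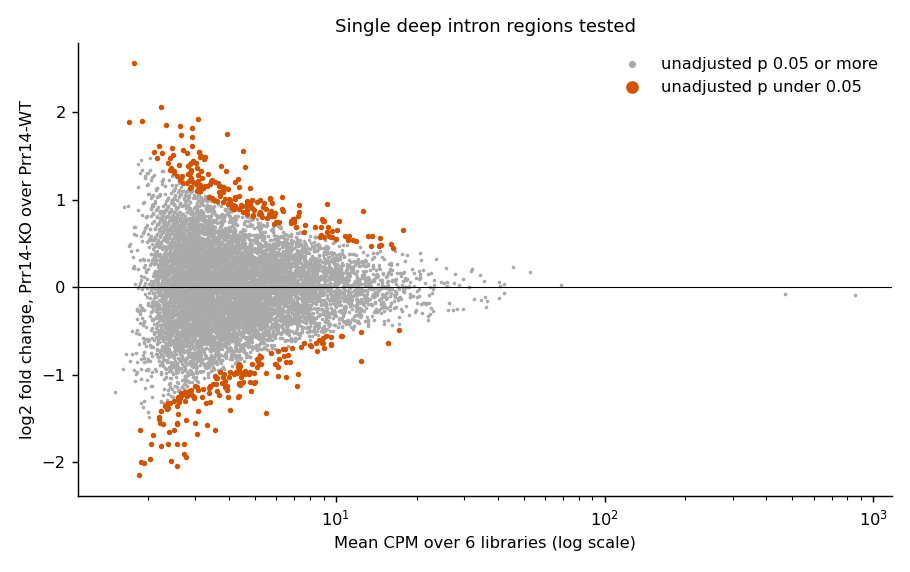
Log2 fold change (Prr14-KO over Prr14-WT, vertical axis) of each tested deep intron region against its mean CPM over 6 libraries (horizontal log axis). Orange points have an unadjusted edgeR p under 0.05, which 373 of 9719 members reached, and 0 passed adjustment. The spread narrows with rising CPM, and the pair at the right are the Gfra1 and Mdga2 regions.

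Named by smallest p, the regions higher in Prr14-KO began with one assigned to Skint10 and lying in Skint6, genes of a family for selecting skin T cells. It held 32, 17 and 32 counts in Prr14-KO and 6, 8 and 11 in Prr14-WT (chr4:112962727-112963461, log2 fold change 1.75, SE 0.49). A region assigned to Fzd1, a Wnt receptor gene, lies in Cdk14, a cyclin-dependent kinase gene, at chr5:4913230-4913820. It held 54, 79 and 83 counts in Prr14-KO and 41, 31 and 53 in Prr14-WT (log2 fold change 0.87, SE 0.25). A region assigned to Oxgr1, in the heparan sulphate enzyme gene Hs6st3, held 31, 32 and 27 counts in Prr14-KO and 16, 6 and 10 in Prr14-WT. None of these groups overlapped, and none of the regions passed. The one with most counts of this kind was assigned to Bub3, a spindle checkpoint gene, with 95, 94 and 100 counts in Prr14-KO and 67, 66 and 61 in Prr14-WT (chr7:131754024-131754657). That region lay outside the Bub3 span, with no RefSeq gene over its midpoint. Its log2 fold change was 0.65 (SE 0.22, edgeR adjusted p = 0.998). The others were in Ncald, Pcsk2 (assigned to Bfsp1), Alk and Lrrtm4, with log2 fold changes of 0.95 to 1.92. Without Prr14-WT replicate 3, Ncald stood at 2.87 in place of 1.92 and Lrrtm4 at 2.55 in place of 1.82, and neither passed.

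Among regions lower in Prr14-KO, the smallest p belonged to one in Ptprt, assigned to Chd6, a chromatin remodeller gene. At chr2:161802168-161802500 it held 10, 16 and 13 counts in Prr14-KO and 48, 35 and 30 in Prr14-WT. Its log2 fold change was -1.44 (SE 0.40, edgeR adjusted p = 0.998). A region assigned to Foxl1, a forkhead factor gene, lay outside its span, with no RefSeq gene over the midpoint. It held 21, 17 and 22 counts in Prr14-KO and 52, 49 and 38 in Prr14-WT (log2 fold change -1.13, SE 0.33). The groups stood apart at both, without passing adjustment. A narrow region of 176 bp in the collagen gene Col23a1 held 47, 44 and 28 counts in Prr14-KO and 80, 78 and 67 in Prr14-WT (log2 fold change -0.84, SE 0.25). Others were in Caln1, Dpp10, Lmx1a, Myo3b and, by the authors' span but not by RefSeq, Rp1, with log2 fold changes of -0.99 to -2.04. All 16 regions named by p had an adjusted p of 0.998.

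**Figure D4:**
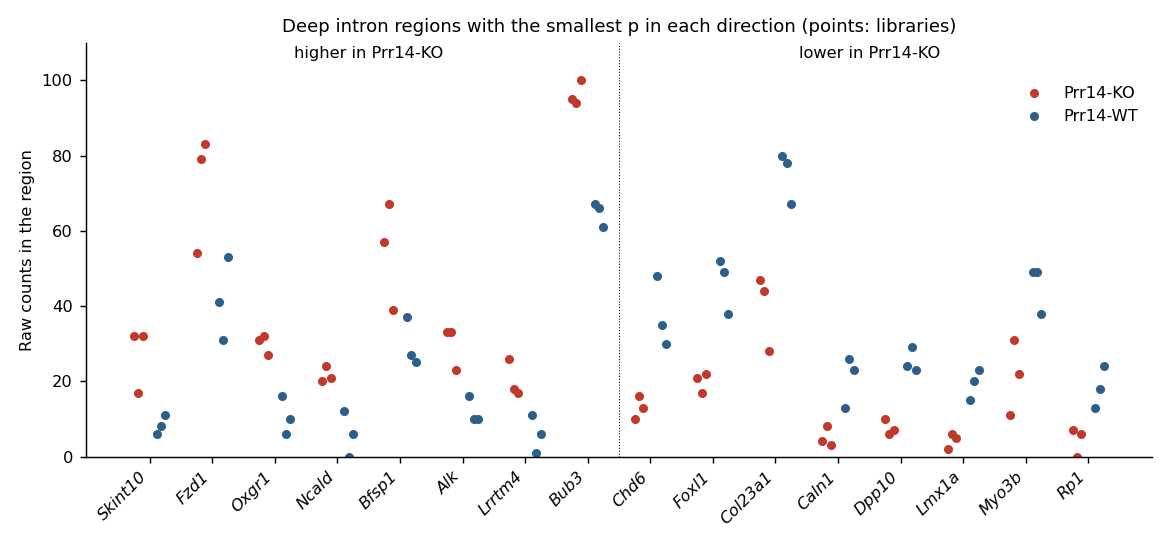
Raw counts per library (vertical axis from 0) in the 8 deep intron regions of smallest p in each direction, by assigned gene, with Prr14-KO points left of Prr14-WT points. The groups do not overlap in any of the 16, which were chosen by smallest p, and all have an adjusted p of 0.998.

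Summing the members of each gene gave more counts. Of 1146 genes, 204 had 1 member, 375 had 10 or more and 38 had 50 or more, and those 38 held 22.1% of members. Of 1075 sums tested, 0 passed in edgeR, DESeq2 and limma-voom, where all sums had 8 of 16389 in edgeR (0.0488%), 0.0427% in DESeq2 and 0.0488% in limma-voom. The smallest adjusted edgeR p was 0.936. An unadjusted edgeR p under 0.05 was reached by 37 sums (3.44%), 22 higher and 15 lower in Prr14-KO, where all sums had 3.64% (2.11% higher and 1.54% lower). It was reached by 31 in DESeq2 (all sums 2.55%) and by 35 in limma-voom (all sums 3.36%). Without Prr14-KO replicate 4 it was reached by 80 (7.29%), where all sums had 8.51%. Groups did not overlap in 88 sums (8.19%), 45 higher and 43 lower, where all sums had 8.61% (4.39% higher and 4.22% lower). The median standard error was 0.20, and for 561 sums (52.2%) the 95% interval of the fold stayed within 1.5 times in either direction.

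The 20 genes with most members held 1831 of them (14.2%). Their log2 fold changes ran from -0.08 to 0.07, 16 below 0, where 566 of all 1075 sums of members were below 0. The 95% intervals of the 20 together spanned -0.23 to 0.22. Lrp1b, a large receptor of the LDL receptor family, had 148 members, all within its span at chr2:40595248-42653624. They summed to 685, 617 and 674 CPM in Prr14-KO and 708, 657 and 638 CPM in Prr14-WT, which overlap (log2 fold change -0.02, SE 0.070). Fhit, a diadenosine triphosphate hydrolase gene at a common fragile site, had 116 members that summed to 431, 446 and 430 CPM in Prr14-KO and 463, 455 and 449 CPM in Prr14-WT. Fhit was the 1 gene of the 20 whose groups did not overlap, where 8.61% of all sums did not. Its log2 fold change was -0.07 (SE 0.073), smaller than its standard error.

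Adhesion and proteoglycan genes came next. Lsamp, of the IgLON family, summed to 302, 316 and 357 CPM in Prr14-KO and 356, 305 and 324 CPM in Prr14-WT over 108 members. Its log2 fold change was -0.02 (SE 0.078), and the groups overlapped. Lrrc4c, a netrin-G ligand gene, had 103 members, at 409 ± 22.1 CPM in Prr14-KO and 430 ± 14.3 CPM in Prr14-WT. Gpc5, summed over all 151 members in its RefSeq span, held 2887, 2540 and 2953 counts in Prr14-KO and 3136, 2740 and 3091 in Prr14-WT (log2 fold change -0.04, SE 0.073). Ctnna3, likewise over the 110 in its span, held 1642, 1538 and 1673 counts in Prr14-KO and 1809, 1634 and 1844 in Prr14-WT (log2 fold change -0.06, SE 0.076). By the assigned symbol alone Ctnna3 would have had 11 members and a log2 fold change of -0.22.

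Receptors of the synapse also had overlapping groups. Grm8, a metabotropic glutamate receptor gene, summed to 301 ± 21.9 CPM in Prr14-KO and 305 ± 18.6 CPM in Prr14-WT over 84 members (SD, n = 3 each). Gabrg3 had 383 ± 24.4 CPM in Prr14-KO and 403 ± 7.91 CPM in Prr14-WT over 79. Lrrtm4, a postsynaptic adhesion gene, was the highest of the 20 in log2 fold change at 0.07 (SE 0.077), with 364, 306 and 350 CPM in Prr14-KO and 329, 335 and 310 CPM in Prr14-WT. Camta1, a calmodulin-binding transcription activator gene, and Sugct, a mitochondrial transferase gene, were the lowest, both at -0.08 (SE 0.074 and 0.078).

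Per length, the 20 genes lay close together. Camta1 was highest at 13.8 CPM per kb over the 6 libraries, followed by Gabrg3 at 12.2 and Ptprt, a receptor phosphatase gene, at 12.1. Erbb4, the neuregulin receptor gene, was lowest at 8.94, and its ligand gene Nrg3 had 10.95. The median over all genes with members was 9.84 CPM per kb.

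**Figure D5:**
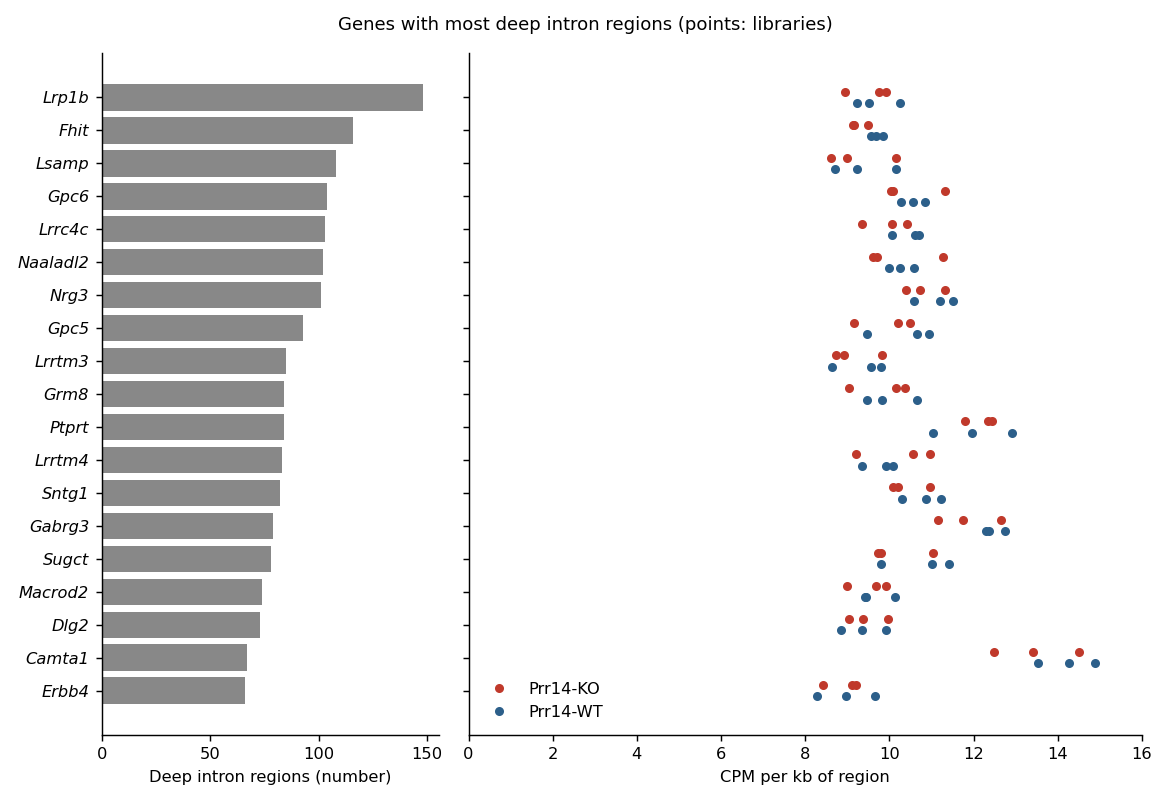
Number of deep intron regions (left, bars from 0) and H3K9me3 level in CPM per kb of region (right, axis from 0) of 19 of the 20 genes with most deep intron regions, by assigned symbol. Points are libraries, with Prr14-KO above Prr14-WT within a gene. Camta1 is highest per kb at 13.8 and Erbb4 lowest at 8.94, and the genotypes overlap in every gene but Fhit.

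Genes with roles in muscle were read from a list of 55, of which 21 had members and 19 were tested. Of these 0 passed and 0 had an unadjusted edgeR p under 0.05, where all sums had 0.0488% and 3.64%. There were 12 above 0 and 7 below, with a median log2 fold change of 0.04, where all sums of members had -0.01. Sgcz encodes zeta-sarcoglycan of the dystrophin complex. Its 66 members by assigned symbol summed to 256, 256 and 253 CPM in Prr14-KO and 279, 269 and 259 CPM in Prr14-WT. Each Prr14-KO value was below each Prr14-WT value, with a log2 fold change of -0.08 (SE 0.078). Over the 108 members in its RefSeq span Sgcz had 2279, 2026 and 2024 counts in Prr14-KO and 2356, 2228 and 2250 in Prr14-WT (log2 fold change -0.05, SE 0.074). Nrg1, a neuregulin needed for muscle spindles, had 53 members at 182 ± 12.3 CPM in Prr14-KO and 176 ± 14.9 CPM in Prr14-WT. The ends of the list were Utrn, the dystrophin relative utrophin, at 0.65, and Pde4d, a phosphodiesterase gene, at -0.26.

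The list of transcription and RNA processing regulators had 28 genes tested, 0 past the threshold, and a median log2 fold change of 0.01. An unadjusted edgeR p under 0.05 was reached by 3 in the higher direction and 1 in the lower, where all sums had 3.64% (2.11% higher and 1.54% lower). Rora, a nuclear receptor of the circadian clock, had 15 members at 94.7, 108 and 109 CPM in Prr14-KO and 91.8, 81.4 and 91.7 CPM in Prr14-WT (log2 fold change 0.23, SE 0.11). The Rora groups did not overlap. Auts2, a neurodevelopmental regulator gene also on the fragile site list, had 5 members at 11.6, 10.2 and 19.9 CPM in Prr14-KO and 8.52, 6.53 and 10.6 CPM in Prr14-WT, which overlap. Esrrg, an orphan nuclear receptor gene of oxidative muscle, had 23 members at 43.9, 60.0 and 71.6 CPM in Prr14-KO and 85.8, 77.3 and 65.6 CPM in Prr14-WT. The Esrrg groups overlapped through Prr14-KO replicate 7, and its log2 fold change was -0.38 (SE 0.13). Rbfox1, a splicing regulator of brain and muscle, had 46 members at 174, 187 and 176 CPM in Prr14-KO and 172, 165 and 172 CPM in Prr14-WT (log2 fold change 0.08, SE 0.086).

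The other lists held 0 genes past the threshold in edgeR and, outside Auts2, 0 with an unadjusted p under 0.05, where all sums had 0.0488% and 3.64%. Median log2 fold changes were -0.02 for 32 synaptic adhesion and scaffold genes, -0.03 for 21 glutamate and GABA receptor genes and -0.02 for 31 ion channel genes. They were -0.01 for 16 genes of common fragile sites, 0.01 for 20 axon guidance genes, 0.00 for 27 phosphodiesterase, kinase and phosphatase genes and -0.04 for 33 matrix and adhesion genes. All sums of members had a median of -0.01 and all sums over all genes 0.00. Some genes belong to more than 1 list. Dpp10, a potassium channel subunit gene with 64 members, stood at 266, 246 and 266 CPM in Prr14-KO and 298, 276 and 277 CPM in Prr14-WT, with groups that did not overlap (log2 fold change -0.13, SE 0.078). Dcc, the netrin receptor gene of axon guidance, stood at 118 ± 13.5 CPM in Prr14-KO and 129 ± 20.4 CPM in Prr14-WT over 43 members.

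The 8 sums of smallest p in both directions had 1 to 23 members each, where the median gene had 5. Fars2, a mitochondrial tRNA synthetase gene, had 5 members with 64, 46 and 40 counts in Prr14-KO and 101, 83 and 90 in Prr14-WT. Its log2 fold change was -0.81 (SE 0.25, edgeR adjusted p = 0.936). Vwc2, a secreted BMP antagonist gene, had 6 members with 148, 125 and 144 counts in Prr14-KO and 188, 178 and 232 in Prr14-WT (log2 fold change -0.46, SE 0.16). The groups stood apart in both. In the higher direction, Slc24a3, a sodium-calcium exchanger gene, had 12 members with 207, 183 and 236 counts in Prr14-KO and 186, 143 and 149 in Prr14-WT (log2 fold change 0.45, SE 0.16). Raw Slc24a3 counts overlapped, and its CPM, at 41.5 to 53.4 in Prr14-KO and 31.1 to 39.6 in Prr14-WT, did not. Dip2c had 6 members with 134, 103 and 104 counts in Prr14-KO and 69, 79 and 90 in Prr14-WT (log2 fold change 0.58, SE 0.21). Fto, the RNA demethylase gene tied to body weight, had 3 members with 20, 48 and 43 counts in Prr14-KO and 20, 14 and 15 in Prr14-WT (log2 fold change 1.24, SE 0.44). Plcb1, a phospholipase C gene, had a log2 fold change of 0.55 (SE 0.20) with overlapping groups. For Plcb1 it was 0.77 without Prr14-KO replicate 4 (edgeR adjusted p = 0.065, the smallest of any member sum in the fits run) and 0.35 without Prr14-KO replicate 5. Mthfd1l had 1 member, with 4, 5 and 10 counts in Prr14-KO and 10, 32 and 23 in Prr14-WT.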

How the data were processed

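H3K9me3 CUT&Tag was measured in 3 Prr14-KO and 3 Prr14-WT libraries of quadriceps femoris, grouped by the genotype label. Per the submitters' processing notes, Trimmomatic, BWA, MACS2, deepTools, bedtools, DESeq2 1.6.3 and GRCm38 were used. The sources used here do not say whether regions were called on pooled libraries, or from which number positions start. Per the file headers, the authors deposited raw counts, a normalised signal, a log2 fold change, a p-value and an adjusted p-value per region, with gene, annotation class and distance to the start.

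The count test was edgeR 4.0.16 in R 4.3.3 (filterByExpr with minimum count 10 and minimum total 15, TMM, robust quasi-likelihood), over all 202553 regions, and over sums that split each symbol into its deep intron regions and the rest. Benjamini-Hochberg adjustment ran over all features tested, with a threshold of 0.05. Shares were compared by exact permutation. Levels are TMM-scaled CPM, except that the CPM per kb of whole classes of regions is by library totals, without TMM. The steps were checked on simulated data. RefSeq hosts are from GRCm38.p6. Members, lists and named-gene rules were chosen with earlier results of these data known. Named were the 20 genes with most members, up to 3 members of each of 9 lists, list members with an unadjusted p under 0.05, the 4 sums and 8 regions of smallest p in each direction, and the 6 widest and 6 highest regions, passing over gene models. The values of 2 named genes are not reported here. The Kcnq1ot1, Fhitos and Gm46928 regions, the Ryr2 region (seventh by mean CPM), and the RefSeq host values of Gpc5 and Ctnna3, were picked after seeing their values. Alternatives were other scalings, filters, thresholds, memberships, region sets, DESeq2 1.42.0, limma-voom (limma 3.58.1) and leaving out each library.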

Additional observations from a re-analysis of the deposited data

How the results depend on the processing

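The counts of regions and of gene sums past the threshold stayed at 0 under every alternative run (scaling, test, filter, an adjusted p of 0.10, membership, host, region width and each library left out). In limma-voom 2.61% of members reached an unadjusted p under 0.05, against 3.84% in edgeR. The share of gene sums with an unadjusted p under 0.05 ran from 2.83% to 7.29% over the fits that left out a library.

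Differences near 0 changed sign. Without each library in turn, the difference in share (Prr14-KO minus Prr14-WT, percentage points) ran from -0.0686 to 0.0461, and the log2 difference of the deep to shallow ratio from -0.0298 to 0.00799. By distance it ran from -0.0208 to 0.0282 at 100 to 150 kb, -0.0128 to 0.0149 at 150 to 200 kb, -0.0115 to 0.0136 at 200 to 300 kb, -0.0233 to 0.00441 at 300 to 500 kb and -0.00893 to 0.00457 beyond 500 kb. Without regions under 300 bp it was 0.000315 at 100 to 150 kb, -0.000135 at 200 to 300 kb and 8.4e-05 beyond 500 kb, and with autosomal counts as the denominator 0.000794 at 100 to 150 kb. Of the 17 gene sums recomputed under the alternatives, 4 turned too, and the other gene sums named were not recomputed. Without regions under 300 bp, their log2 values were 0.0026 for Lrp1b, 0.026 for Lsamp, 0.015 for Gpc6 and 0.020 for Naaladl2. Without each library in turn they ran from -0.0556 to 0.0225 for Lrp1b, -0.0895 to 0.0432 for Lsamp, -0.0719 to 0.0149 for Gpc6 and -0.0960 to 0.0273 for Naaladl2.

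The level of deep introns below the other classes kept its direction without each library, at log2 ratios of -0.0802 to -0.0617 to shallow introns and -0.0977 to -0.0812 to intergenic regions, where 5 libraries cannot give p under 0.0625. Without regions under 300 bp it was -0.0938 and -0.130. It turned without the 500 regions with most counts, to 0.0057 and 0.0031. As a median over regions it was 0.029 to shallow introns and -0.012 to intergenic regions (exact p = 0.25 and 0.50).

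No paired analysis was possible because the genotypes share only replicate number 4. Depth limits single regions: the median member held 14.5 counts a library, and its log2 fold change had a standard error of 0.47 at the median.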

Other observations

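Deep introns that the rule left out were compared between genotypes as sums. On the X chromosome there were 98 such regions, at 8.18 CPM per kb in Prr14-KO and 7.97 CPM per kb in Prr14-WT by library totals. Members had 10.6 in each by the same measure. The labels give no sex, so the number of X copies is not known, and why the X level was lower was not tested. The median region of the 98 held 9.67 counts a library. In TMM-scaled CPM, the 98 summed to 245 ± 16.3 in Prr14-KO and 240 ± 7.87 in Prr14-WT (SD, n = 3 each). Their log2 ratio was 0.03, with a two-sided exact permutation p = 0.80. Dmd, the dystrophin gene, had 6 of them, at 11.04 ± 1.59 CPM in Prr14-KO and 9.56 ± 1.98 CPM in Prr14-WT (log2 ratio 0.21, exact permutation p = 0.50). Il1rapl1, a synaptic receptor gene, also had 6, at 14.0 ± 2.37 CPM in Prr14-KO and 15.4 ± 2.75 CPM in Prr14-WT.

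The gene families left out by symbol held 1163 deep intron regions, which summed to 4873 ± 191 CPM in Prr14-KO and 4895 ± 115 CPM in Prr14-WT (exact permutation p = 0.90). Genes with symbols beginning with Cntn, which take in contactins and contactin-associated Cntnap genes of neuronal adhesion, held 542 of them, at 2224 ± 105 CPM in Prr14-KO and 2246 ± 72.3 CPM in Prr14-WT. Csmd genes held 255, cadherins (Cdh) 192, protocadherins (Pcdh) 105 and zinc finger genes (Zfp) 66. None of these 5 families gave an exact permutation p under 0.40, and with 3 libraries against 3 none could go below 0.10.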
